A study of Mus musculus with 12 samples.

Results

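The PARP genes Parp9, Parp10, Parp11, Parp12 and Parp14, and Dtx3l, were described across splenic CD4+ T cells of mice with and without experimental periodontitis. The 6 genes were found by symbol and read by Ensembl identifier among the 55414 gene records of the count table, and all 6 passed the filter on low counts in every fit. They were selected on their levels in these same groups, and which contrast decided is not recorded. Every comparison of them is therefore given as a description, without a p-value.

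The mice were wild-type male BALB/c animals aged 18 weeks, with a ligature placed around the maxillary second molar (LIP) or without one (CTL), and CD4+ T cells were purified from the spleen by negative selection. Cells were sequenced uncultured (day 0) or after culture for 2 days with IL-2, anti-TCRβ and anti-CD28 (day 2), which drives proliferation through the T-cell receptor. Each of the 4 groups held 3 libraries, named here by the number in their labels: CTL 88, 89 and 94 and LIP 92, 93 and 94 on day 0, and CTL 92, 93 and 97 and LIP 90, 96 and 97 on day 2. For 4 of the day 2 libraries the label gives a different antibody from anti-CD28: anti-CD29 for both CTL 93 and LIP 96, and anti-CD30 for the pair numbered 97. The treatment protocol of all 12 libraries names anti-CD28 alone beside anti-TCRβ and IL-2, so the labels go against each other, and which antibody these 4 cultures received is not settled here. The labels do not say whether each library came from a separate mouse, so the errors measure the spread between these libraries, which may be technical.

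PARP proteins transfer ADP-ribose from NAD to proteins or nucleic acids, either as a single unit or as a chain. The founding members act in DNA repair, whereas a group of mostly mono-ADP-ribosylating members is induced by interferons and takes part in antiviral defence. DTX3L is an E3 ubiquitin ligase of the Deltex family that works in a complex with PARP9. Interferons act through JAK kinases on transcription factors that bind the interferon-stimulated response element (ISRE) or, after interferon γ, the gamma-activated sequence (GAS).

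Parp9, Dtx3l and Parp14 lie close together on chromosome 16 (GRCm39): Parp9 on the plus strand at chr16:35758840-35792980, Dtx3l on the minus strand at chr16:35746881-35759521 and Parp14 on the minus strand at chr16:35653231-35692003. Parp9 and Dtx3l are transcribed away from each other, and their 5′ ends overlap by 682 bases. The 5′ end of Parp14 lies 54.9 kb from the 3′ end of Dtx3l. Parp10 (minus strand) is at chr15:76115374-76127648. Parp11 (plus strand) is at chr6:127423483-127491198 and Parp12 (minus strand) at chr6:39063342-39095573. All 6 are annotated as protein coding.

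The RefSeq promoter table (GRCm38.p6) held windows of Parp11, Parp12 and Dtx3l, 3 of the 6 genes. Each window of 300 bases runs from 250 bases before a transcription start to 50 after it, and the windows are shown because the 6 genes had a like pattern on day 2. They were searched on both strands for the ISRE letters GAAANNGAA and the GAS letters TTCNNNGAA. Capitals mark the matched bases, and a sequence without capitals had no match.
Parp11, first start (upstream), chr6:127446590-127446889, plus strand: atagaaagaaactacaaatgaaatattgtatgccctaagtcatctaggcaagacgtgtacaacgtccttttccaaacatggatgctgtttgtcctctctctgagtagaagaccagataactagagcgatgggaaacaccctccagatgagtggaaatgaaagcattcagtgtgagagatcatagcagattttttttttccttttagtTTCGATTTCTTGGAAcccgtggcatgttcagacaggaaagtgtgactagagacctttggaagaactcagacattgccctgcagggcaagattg
Parp11, second start (nearest the canonical one), chr6:127453377-127453676, plus strand: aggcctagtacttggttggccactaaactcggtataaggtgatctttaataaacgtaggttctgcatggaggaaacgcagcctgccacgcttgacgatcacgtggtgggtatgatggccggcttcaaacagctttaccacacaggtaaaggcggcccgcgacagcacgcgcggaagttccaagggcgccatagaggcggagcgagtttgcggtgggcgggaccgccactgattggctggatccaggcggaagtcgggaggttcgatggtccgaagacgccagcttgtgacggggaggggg
Parp12, chr6:39118300-39118599, minus strand: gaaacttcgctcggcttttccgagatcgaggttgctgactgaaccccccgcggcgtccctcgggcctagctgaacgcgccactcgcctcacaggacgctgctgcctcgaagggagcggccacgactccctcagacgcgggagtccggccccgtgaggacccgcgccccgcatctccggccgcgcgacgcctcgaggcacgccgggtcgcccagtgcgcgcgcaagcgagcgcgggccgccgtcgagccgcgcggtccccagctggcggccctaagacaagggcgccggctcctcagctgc
Dtx3l, chr16:35938978-35939277, minus strand: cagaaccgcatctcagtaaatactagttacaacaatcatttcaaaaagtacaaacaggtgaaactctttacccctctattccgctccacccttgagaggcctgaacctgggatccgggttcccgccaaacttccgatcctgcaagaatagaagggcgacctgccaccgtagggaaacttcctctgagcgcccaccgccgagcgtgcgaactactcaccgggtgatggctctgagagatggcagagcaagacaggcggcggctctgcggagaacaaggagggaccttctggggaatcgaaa
Each window had 1 exact match on its own chromosome in GRCm39, which gives its place relative to the canonical start in GENCODE. The second Parp11 start lies 16 bases downstream of the canonical one, the Dtx3l start 124 bases and the Parp12 start 290 bases downstream. The windows of these 3 starts held neither set of letters. The Parp12 window thus lies wholly downstream of the canonical start, and the bases before that start were not searched. The Dtx3l window takes in fewer than 250 bases before its canonical start. The first Parp11 start lies 6771 bases upstream of the canonical one. Its window held 1 match to the ISRE letters, beginning 43 bases before that start, and 1 match to the GAS letters, beginning 37 bases before it, and the matches shared 3 bases. Of all 32851 promoter windows, 8.56% held the ISRE letters and 8.30% the GAS letters. Of the 41 windows of other interferon-stimulated genes in a fixed list, 43.9% held the ISRE letters and 24.4% the GAS letters. A match describes the letters in a window and not a bound site.

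The 12 libraries held between 6249018 and 7845676 expected counts on day 0 and between 8691699 and 12866718 on day 2. The 6 markers of CD4+ T cells were all detected in each group, at a summed level of 1690.1 to 1943 CPM (normalized read counts scaled to a common library total) on day 0 and 2508 to 3006 CPM on day 2. The 6 stimulation markers together stood at 555 to 698 CPM in CTL and 509 to 523 CPM in LIP on day 0, without overlap, and at 6688 to 6765 and 5647 to 7704 CPM on day 2. Among them Cd69, an early activation marker, was lower in LIP cells of day 0, at 299.7 ± 85.9 CPM in CTL and 159.9 ± 14.0 CPM in LIP (log2 fold change -0.90, SE 0.16, adjusted p = 0.0375, edgeR). The call was lost without CTL 88, LIP 92, LIP 93 or LIP 94 (-0.97 to -0.68, adjusted p = 0.103 to 0.316, edgeR) and in 1 fit over all 12 libraries (-0.91, adjusted p = 0.198). It is named because it was the 1 marker of these called, after its value was seen. Cd69 had the highest level of the 6 in CTL cells of day 0 and carried the lower LIP sum. Of the 6 stimulation markers, 4 had a positive log2 fold change in LIP cells of day 0, with a median of 0.21. The first principal component of day 2 (48.1% of variance) put LIP 96 at 44.9 and LIP 97 at 39.4, whereas LIP 90, at -8.11, was nearer to the CTL libraries at -34.9 to -18.1. On that of day 0 (39% of variance), CTL 94 lay at 13.4 among the LIP libraries at 7.78 to 18.4, away from CTL 88 at -18.6 and CTL 89 at -37. Results for the 6 genes are therefore also given without LIP 90 or CTL 94.

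On day 2 the level of every one of the 6 genes was higher in each LIP library than in any CTL library. The fold change was 5.00 for Parp12 and between 1.63 and 2.13 for the other five. Levels are CPM after normalization by the trimmed mean of M-values over the 12 libraries, and fold changes come from edgeR fits to the day's 6 libraries. In these bulk libraries, a change in the share of cells of a type and a change in RNA per cell cannot be told apart.

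Parp9 encodes a macrodomain protein that partners DTX3L. On day 2 its level was 94.1, 66.0 and 90.1 CPM in CTL 92, 93 and 97, and 153, 116 and 167 CPM in LIP 90, 96 and 97. The lowest LIP library stood above the highest CTL library. The log2 fold change, LIP against CTL, was 0.79 (SE 0.18).

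Dtx3l, the ubiquitin ligase of the pair, was at 167, 114 and 161 CPM in CTL 92, 93 and 97, and at 229, 202 and 296 CPM in LIP 90, 96 and 97. Again the groups did not overlap. The log2 fold change of 0.71 (SE 0.19) was the smallest of the 6 and lay within 1 SE of that of Parp9. Because the counting setting for strand is not given in the sources used here, reads in the bases that Parp9 and Dtx3l share may have been assigned to either gene.

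Parp14 encodes a large mono-ADP-ribosyltransferase with macrodomains, known as a co-factor of STAT6 in the response to IL-4. Its level was 275, 183 and 231 CPM in CTL 92, 93 and 97, and 401, 321 and 569.7 CPM in LIP 90, 96 and 97. LIP 97 was well above the other LIP libraries, and all 3 were above the CTL libraries. The log2 fold change was 0.90 (SE 0.23).

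Parp10 encodes a mono-ADP-ribosyltransferase first found as a partner of the MYC protein. On day 2 it stood at 30.6, 20.1 and 28.7 CPM in CTL 92, 93 and 97, and at 49.1, 48.5 and 72.8 CPM in LIP 90, 96 and 97. LIP 90 and LIP 96 were nearly level, LIP 97 was higher, and the groups did not overlap. The log2 fold change was 1.09 (SE 0.22).

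Parp11, a mono-ADP-ribosyltransferase found at the nuclear envelope, had no match to either set of letters at its canonical start and 1 to each at the upstream start. It stood at 29.6, 22.9 and 36.9 CPM in CTL 92, 93 and 97, and at 45.1, 48.2 and 70.9 CPM in LIP 90, 96 and 97. Here too the groups did not overlap, with LIP 97 the highest. The log2 fold change was 0.86 (SE 0.23).

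Parp12, a zinc-finger mono-ADP-ribosyltransferase that restricts RNA viruses, had the lowest level and the largest fold change of the 6. It was at 3.06, 1.67 and 2.27 CPM in CTL 92, 93 and 97, from 29, 14 and 20 counts. In LIP 90, 96 and 97 it was at 11.8, 9.64 and 14.3 CPM, from 132, 103 and 110 counts. The lowest LIP library was thus well above the highest CTL library. The log2 fold change was 2.32 (SE 0.28), a fold of 5.00.

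**Figure D1:**
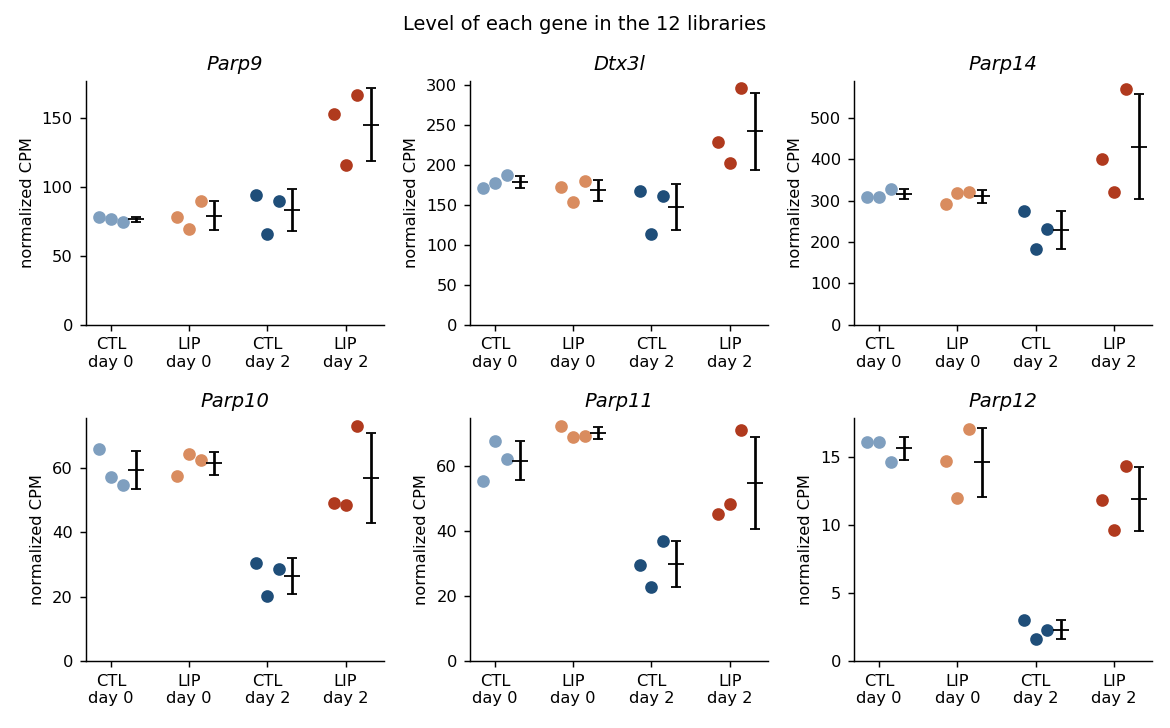
Level of each of the 6 genes in normalized CPM (vertical axes, each starting at 0) in the 3 libraries of the 4 groups. Coloured points are libraries in the order of their numbers, and black marks are the mean ± SD (n = 3). On day 2 all LIP points lie above all CTL points in each panel; in LIP day 2, LIP 97 is the highest point.

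The libraries kept much the same order from gene to gene on day 2. CTL 93 was the lowest of the 6 libraries for 6 of 6 genes and LIP 97 the highest for 6 of 6. LIP 90, which lay nearer to the CTL libraries on the first component over all genes, was the second highest for 5 of the 6. Without LIP 90 the log2 fold change was 0.78 for Parp9, 0.77 for Dtx3l, 0.97 for Parp14, 1.21 for Parp10, 1.01 for Parp11 and 2.35 for Parp12. Over all 6 omissions of a library the lowest value of any gene was 0.54, for Dtx3l without LIP 97, and the highest 2.57, for Parp12 without CTL 92.

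**Figure D2:**
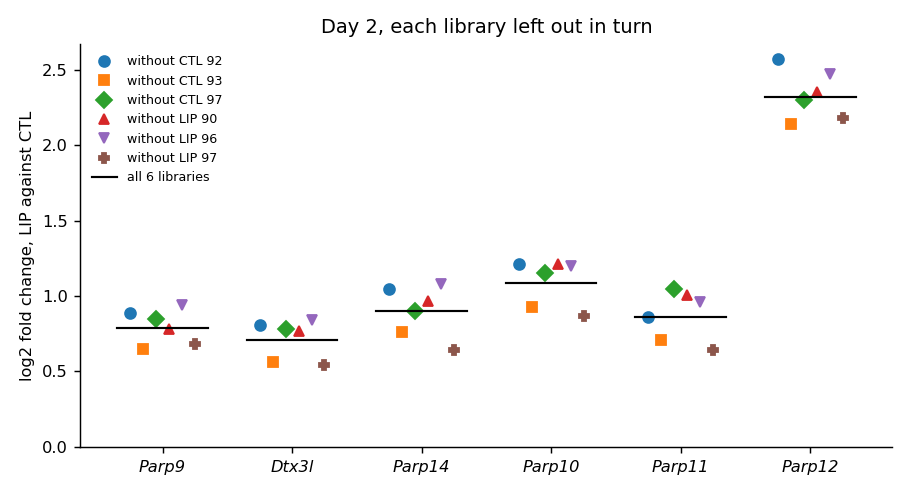
Log2 fold change of LIP against CTL on day 2 (vertical axis) for each gene when 1 library at a time was left out (symbols), beside the value with all 6 libraries (black lines). Every symbol lies above 0, and the lowest values come from leaving out CTL 93 or LIP 97.

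With edgeR's quasi-likelihood test and Benjamini-Hochberg adjustment, 0 of the 6 genes had an adjusted p under 0.05 on day 2, and 0% of the 14041 genes tested did. At an unadjusted p under 0.05, 6 of 6 were higher, as were 8.33% of all genes. DESeq2 called 6 of 6 higher at an adjusted p under 0.05, beside 2.04% of all genes, and so did edgeR without LIP 90, beside 7.74%. In edgeR without the filter on low counts 6 of 6 were called, beside 1.59% of all genes, and in 1 edgeR fit over all 12 libraries 6 of 6, beside 2.88%. The study's rule of an unadjusted p under 0.05 with an absolute log2 fold change over 1 took in 2 of the 6, Parp12 and Parp10, beside 1.62% of all genes in that direction. Groups that did not overlap, with LIP higher, were found for 6 of 6 and for 10.9% of all genes. The 6 genes were chosen with these values known, so nothing is read from these counts.

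On day 0 the groups were close. Parp11 was the exception to overlap among the 6, at 55.4, 67.5 and 62.0 CPM in CTL 88, 89 and 94, and 72.3, 68.9 and 69.3 CPM in LIP 92, 93 and 94, a log2 difference of 0.19 (SE 0.09). Groups apart in that direction were found for 9.26% of all genes.

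Parp9 was at 78.2, 76.8 and 74.5 CPM in CTL 88, 89 and 94 and at 78.4, 69.4 and 89.9 CPM in LIP 92, 93 and 94. Dtx3l was at 171, 178 and 187 CPM in the CTL libraries and at 172, 154 and 179.6 CPM in the LIP libraries. For both genes the LIP values lay on either side of CTL values, and the log2 differences were 0.06 (SE 0.09) and -0.08 (SE 0.08). Parp14 was at 308, 308 and 329 CPM in CTL and at 292, 319 and 319.7 CPM in LIP. Parp10 was at 65.8, 57.2 and 54.6 CPM in CTL and at 57.3, 64.3 and 62.4 CPM in LIP. These overlapped as well, with log2 differences of -0.02 (SE 0.07) for Parp14 and 0.06 (SE 0.09) for Parp10. Parp12 was at 16.1, 16.1 and 14.6 CPM in CTL and at 14.7, 12.0 and 17.0 CPM in LIP, a log2 difference of -0.09 (SE 0.15).

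On day 0, 0 of the 6 genes had an adjusted p under 0.05 in edgeR, beside 0.427% of the 14064 genes tested, and DESeq2 also called 0, beside 0.263% of all genes higher and 1.17% lower. At an unadjusted p under 0.05, 1 of the 6 (Parp11) was higher, beside 6.67% of all genes. Without CTL 94 the log2 differences ranged from -0.14 to 0.19 over the 6 genes. Leaving out LIP 94 or LIP 93 gave -0.04 or 0.14 for Parp9 and -0.22 or 0.03 for Parp12. Parp14, at -0.02, was at 0.02 without LIP 92 and at 0.01 without CTL 94, and Parp10 was at 0.00 without CTL 94. The sign of these 4 genes on day 0 therefore rested on single libraries.

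The question whether the LIP difference itself changed between the days was fitted over all 12 libraries, as the day 2 difference minus the day 0 difference. It was 2.42 (SE 0.30) on the log2 scale for Parp12, 1.04 (SE 0.25) for Parp10 and 0.93 (SE 0.25) for Parp14. For Dtx3l it was 0.80 (SE 0.22), for Parp9 0.75 (SE 0.22) and for Parp11 0.68 (SE 0.25). All 6 values were positive, and Parp11, which had the largest difference on day 0, had the smallest. In edgeR 1 of the 6, Parp12, had an adjusted p under 0.05 and was higher, beside 0.0323% of the 15475 genes tested. DESeq2 called 5 of the 6, Parp11 not among them, beside 2.40% of all genes, and edgeR without the filter on low counts called 6, beside 1.82%. The call of Parp12 was lost when any of CTL 88, CTL 89, LIP 92 or LIP 93 of day 0, or CTL 93 of day 2, was left out, with its value then between 2.24 and 2.42. Without LIP 90, 5 of the 6 were called, beside 5.64% of all genes. This contrast shares its day 2 libraries with the day 2 comparison and is no separate support for it.

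The 6 genes differed in how their levels on day 2 stood to those on day 0. In CTL cells 4 of the 6 were lower on day 2 at an adjusted p under 0.05 in edgeR, beside 33.7% of all genes, and 0 were higher, beside 35.3%. In LIP cells 3 of the 6 were higher, beside 36.6% of all genes, and 0 were lower, beside 35.2%. Without LIP 97, Parp11 was called lower in LIP cells, beside 32.2% of all genes. Most genes moved with culture, so these counts are a description of the 6.

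Parp12 had the largest difference between the days in CTL cells, where its mean level was 15.6 ± 0.880 CPM (SD, n = 3) on day 0 and 2.34 ± 0.699 CPM on day 2, a log2 difference of -2.72 (SE 0.23). In LIP cells it was 14.6 ± 2.51 CPM and 11.9 ± 2.31 CPM, a difference of -0.30 (SE 0.20) with overlapping groups. The LIP cells of day 2 thus stood near the level of uncultured cells. Parp10 showed a like pattern, with -1.16 (SE 0.18) in CTL cells, where the days did not overlap, and -0.12 (SE 0.17) in LIP cells, where they did. Parp11 was at -1.05 (SE 0.18) in CTL cells and -0.36 (SE 0.18) in LIP cells, again apart in CTL and overlapping in LIP.

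Parp9, Dtx3l and Parp14, the neighbours on chromosome 16, were higher on day 2 than on day 0 in every LIP library. Their log2 differences in LIP cells were 0.88 (SE 0.15), 0.53 (SE 0.15) and 0.47 (SE 0.18). In CTL cells Parp9 overlapped between the days at 0.13 (SE 0.15), Dtx3l was at -0.28 (SE 0.15) and Parp14 at -0.46 (SE 0.18), both without overlap. Parp14 was the gene whose call rested on single libraries. In CTL cells its call was lost without CTL 88, 89 or 94 of day 0 or CTL 93 or 97 of day 2, at -0.47 to -0.31. In LIP cells it was lost without LIP 92, 93 or 94 of day 0 or LIP 97 of day 2, at 0.23 to 0.51. Groups apart with day 2 lower were found for 5 of the 6 in CTL cells, beside 36.1% of all genes. Groups apart with day 2 higher were found for 3 of the 6 in LIP cells, beside 37.4%.

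**Figure D3:**
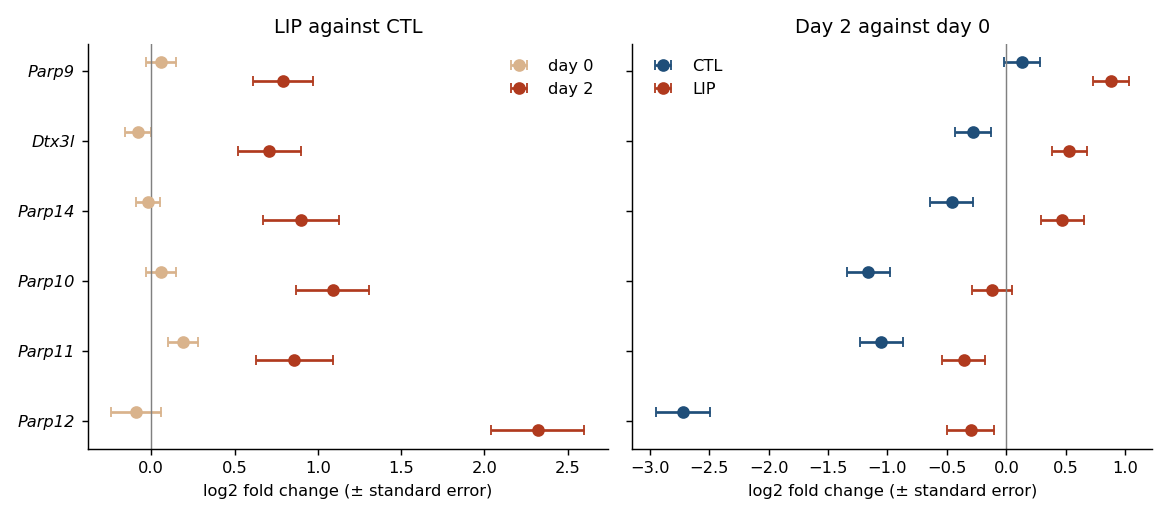
Log2 fold change (horizontal axes) with its standard error for each of the 6 genes: LIP against CTL on each day (left) and day 2 against day 0 in each condition (right). The day 2 values lie between 0.71 and 2.32 and the day 0 values between -0.09 and 0.19, while the CTL values on the right lie to the left of the LIP values for every gene.

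Per kilobase of annotated exon, Parp14 and Dtx3l had the highest levels of the 6 in every group and Parp12 the lowest. In CTL cells of day 0 the order was Parp14 at 32.9 ± 1.27 CPM per kb (SD, n = 3), Dtx3l at 31.2 ± 1.37, Parp9 at 15.2 ± 0.376, Parp10 at 13.8 ± 1.38, Parp11 at 4.79 ± 0.471 and Parp12 at 3.59 ± 0.202. The ranges of Parp14 and Dtx3l overlapped, as did those of Parp9 and Parp10, and the other neighbours in the order were apart. The same order held in LIP cells of day 0 and day 2. In CTL cells of day 2 Dtx3l (25.8 ± 5.06 CPM per kb) and Parp14 (24.0 ± 4.80) overlapped, and Parp12 was at 0.537 ± 0.161. Parp9 and Parp10 overlapped on day 0 but not on day 2, when Parp9 was at 16.6 CPM per kb and Parp10 at 6.18 in CTL cells, and at 29.0 and 13.3 in LIP cells.

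The ratio of Parp9 to Dtx3l counts was between 0.399 and 0.458 in the CTL libraries and between 0.451 and 0.501 in the LIP libraries of day 0. On day 2 it was between 0.560 and 0.578 in CTL and between 0.564 and 0.669 in LIP. The ratio was thus higher in every day 2 library than in any day 0 library, while on day 2 the LIP and CTL ranges overlapped.

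Between replicate libraries the 6 genes had a pooled within-group SD of 0.22 to 0.27 on the log2 scale. Taken over the 12 libraries with each day centred on its own mean, the profile of Parp10 lay closest to the mean of the other five, at a root mean square difference of 0.11 on the log2 scale. Parp14 followed at 0.13, Parp9 at 0.16, Dtx3l at 0.17 and Parp11 at 0.19. Parp12 was farthest, at 0.51. Of 9447 genes with a mean of at least 10 CPM, the 5 nearest to the mean profile of the 6 were Daxx at 0.12, Stat2 and Sp100 at 0.14, and Helz2 and Trim12c at 0.15. The median over those genes was 0.45, and a flat profile would lie at 0.43. Daxx and Sp100 encode nuclear body proteins, and STAT2 is part of the factor that binds the ISRE. These likenesses rest on 12 libraries that share the differences in depth and between groups described above.

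The other ADP-ribosyltransferases had a median near that of all genes on day 2. Of 11 tested, 8 had a positive log2 fold change, 3 were higher at an unadjusted p under 0.05 (8.33% of all genes) and 0 passed adjustment in edgeR or DESeq2. Their median was 0.04, beside -0.01 over all genes and 0.88 over the 6 genes. Parp2, a DNA-repair enzyme, was at 35.3 ± 1.89 CPM in CTL and 44.9 ± 1.72 CPM in LIP (SD, n = 3), a log2 fold change of 0.34 (SE 0.11, adjusted p = 0.207, edgeR). Parp4, the vault PARP, was at 138 ± 17.5 CPM in CTL and 248 ± 117 CPM in LIP, with overlapping groups (0.84, SE 0.35, adjusted p = 0.279). The third gene, Zc3hav1, was at 442 ± 43.3 and 637 ± 186 CPM, with overlapping groups (0.52, SE 0.22, adjusted p = 0.291). Its day 2 difference minus its day 0 difference was 0.63 (SE 0.24, adjusted p = 0.206, edgeR). With culture, Parp1, the main DNA-damage PARP, rose in CTL cells by 1.08 on the log2 scale (SE 0.15, adjusted p = 1.83e-05, edgeR) and in LIP cells by 1.04 (SE 0.15, adjusted p = 2.45e-05). At an adjusted p under 0.05, 2 of the 11 rose and 6 fell in CTL cells, beside 35.3% and 33.7% of all genes, and 2 rose and 5 fell in LIP cells, beside 36.6% and 35.2%.

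Of the other interferon-stimulated genes, 38 of 39 tested had a positive log2 fold change on day 2, the exception being Ifi47 at -0.03 (named after its value was seen). None passed adjustment in edgeR, as for all genes, and 28 were called higher in DESeq2, beside 2.04% of all genes. The median was 1.12, and 34 were higher at an unadjusted p under 0.05, beside 8.33% of all genes. Isg15, the ubiquitin-like modifier, was at 2.43 ± 1.14 CPM in CTL and 34.5 ± 18.4 CPM in LIP (3.79, SE 0.46, adjusted p = 0.0568). Oasl1, a 2′-5′ oligoadenylate synthetase-like protein, was at 1.38 ± 0.418 and 10.1 ± 3.55 CPM (2.83, SE 0.36, adjusted p = 0.0596). On day 0 the median of 40 genes tested was 0.16, with 11 higher and 1 lower at an unadjusted p under 0.05 (6.67% and 7.20% of all genes) and 0 passing adjustment in edgeR or DESeq2. This list too was chosen with earlier results of these data known, so its counts are a description and no separate support.

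With culture, at an adjusted p under 0.05 in edgeR, 17 of 41 of those genes rose and 12 fell in CTL cells, beside 35.3% and 33.7% of all genes. In LIP cells 27 rose and 6 fell, beside 36.6% and 35.2%. Whether these counts differ from those of other genes was not tested. Rtp4 fell by 4.21 (SE 0.59, adjusted p = 2.61e-05, edgeR) on the log2 scale in CTL cells and by 1.38 (SE 0.42, adjusted p = 0.00936) in LIP cells. Its CTL libraries of day 2 held 1 to 9 counts. Oas2, which senses double-stranded RNA, was at 5.68 ± 1.17 CPM in CTL cells on day 0 and had 0 to 3 counts a library on day 2 (adjusted p = 0.000106), too few for a fold change. In LIP cells it fell by 1.54 (SE 0.55, adjusted p = 0.0212), with libraries of the 2 days overlapping. The genes that rose most in CTL cells were Ifi27l2a by 2.59 (SE 0.22, adjusted p = 1.91e-07), Gbp2, a guanylate-binding protein, by 2.44 (SE 0.16, adjusted p = 2.67e-08) and Eif2ak2, the kinase PKR, by 2.03 (SE 0.36, adjusted p = 0.000220). Ifi27l2a rose by 3.59 (SE 0.22, adjusted p = 1.13e-08) in LIP cells and Ifi44 by 3.92 (SE 0.63, adjusted p = 8.36e-05). Isg15 rose in LIP cells by 4.58 (SE 0.46, adjusted p = 1.1e-06). For the day 2 difference minus the day 0 difference, 41 of 41 were positive with a median of 1.12, 28 had an unadjusted p under 0.05 (8.65% of all genes were higher), 0 passed adjustment in edgeR and 20 did in DESeq2 (2.40% of all genes were called higher).

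Of the 15 genes of interferon signalling, 12 had a positive log2 fold change on day 2, with a median of 0.20, 6 higher at an unadjusted p under 0.05 (8.33% of all genes), 0 passing adjustment in edgeR and 4 called higher in DESeq2 (2.04%). Usp18, which removes ISG15 and restrains the interferon receptor, was at 10.6 ± 4.14 CPM in CTL and 82.4 ± 45.5 CPM in LIP (2.94, SE 0.42, adjusted p = 0.0894). Stat2 was at 93.9 ± 27.3 and 226 ± 53.0 CPM (1.26, SE 0.24, adjusted p = 0.108).

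Among the interferons themselves, Ifng, which encodes interferon γ, was the only one of 9 that passed the filter on low counts. It was at 28.5 ± 12.2 CPM in CTL and 13.3 ± 7.32 CPM in LIP on day 2, with overlapping groups (-1.10, SE 0.42, adjusted p = 0.248, edgeR). With culture it rose in CTL cells by 3.15 (SE 0.45, adjusted p = 3.28e-05) and in LIP cells by 2.11 (SE 0.46, adjusted p = 0.00108). Ifnb1, Ifna1, Ifne, Ifnl2 and Ifnl3 had 0 counts in all 12 libraries. A count of 0 allows up to 3 counts, or 0.269 to 0.452 CPM by library, for counting error only. Ifna2 and Ifna4 had 1 count each, in LIP 90 of day 2, and 0 in the other libraries. Ifnk, the gene of interferon κ, had 5 to 11 counts a library on day 0 and 1 to 7 on day 2, at 0.422 ± 0.373 CPM in CTL and 0.165 ± 0.0312 CPM in LIP on day 2, with overlapping groups. Ifna1, Ifna2 and Ifna4 belong to a family of near-identical genes, so their reads are uncertain.

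The genes that supply NAD, remove ADP-ribose or encode other Deltex ligases had medians of 0.24, 0.05 and 0.18 on day 2, and 0 passed adjustment in edgeR. At an unadjusted p under 0.05, 2 of 7 NAD supply genes were higher and 1 lower, 1 of 5 genes of removal was higher, and 0 of 4 Deltex ligases passed, beside 8.33% of all genes higher and 8.20% lower. Nampt, the rate-limiting enzyme of NAD salvage, was at 122 ± 19.0 CPM in CTL and 192 ± 49.4 CPM in LIP (0.65, SE 0.20, adjusted p = 0.185), and rose with culture in CTL cells by 1.96 (SE 0.18, adjusted p = 4.95e-07). Nmnat2, another enzyme of NAD synthesis, was at 2.76 ± 1.15 CPM in CTL and 0.586 ± 0.473 CPM in LIP, from 1 to 8 counts (-2.30, SE 0.61, adjusted p = 0.150). Adprh, which removes ADP-ribose from arginine, was at 43.3 ± 1.39 and 57.2 ± 8.02 CPM (0.39, SE 0.14, adjusted p = 0.222). Dtx3, a relative of Dtx3l, was at 28.0 ± 4.70 and 36.9 ± 14.0 CPM with overlapping groups (0.38, SE 0.29, adjusted p = 0.542). On day 0 Dtx3 was at 18.2 ± 0.980 and 26.8 ± 3.14 CPM without overlap (0.57, SE 0.12, adjusted p = 0.0732). Dtx1, another Deltex ligase, fell with culture by 4.35 (SE 0.14, adjusted p = 1.69e-10) in CTL cells and by 4.20 (SE 0.14, adjusted p = 1.29e-10) in LIP cells.

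**Figure D4:**
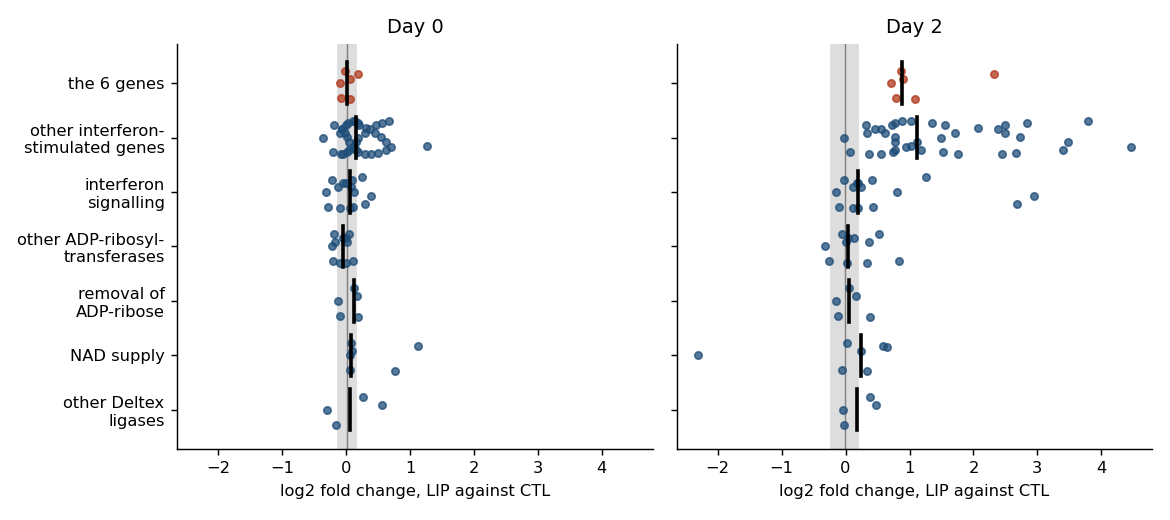
Log2 fold change of LIP against CTL (horizontal axes, the same on both panels) on day 0 and day 2 for the 6 genes (red) and the fixed lists (blue). Each point is a gene that passed the filter on low counts, black bars are medians, the grey line is the median of all genes and the grey band their middle quartiles. On day 2 the medians of the 6 genes (0.88) and of the other interferon-stimulated genes (1.12) lie to the right of the band, which 2 of the latter, Ifi47 (-0.03) and Igtp (0.07), fall within, and the median of the other ADP-ribosyltransferases (0.04) lies in it. The medians of NAD supply (0.24) and interferon signalling (0.20) lie just past the band's right edge at 0.19.

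Markers of other cells that the purified fraction could hold were low on day 2. The 6 B-cell markers summed to 3.28 to 19.6 CPM in CTL and 2.42 to 33.3 CPM in LIP, with 6 of 6 fold changes positive and 1 at an unadjusted p under 0.05. The 8 myeloid markers summed to 1.43 to 4.43 and 1.52 to 6.35 CPM, and the 2 CD8 markers to 4.43 to 6.33 and 4.93 to 13.2 CPM. The 3 markers of plasmacytoid dendritic cells, a main source of type I interferon, summed to 12.4 to 17.5 CPM in CTL and 12.0 to 20.1 CPM in LIP, where Siglech had 0 counts. Most of that sum was Tcf4, at 13.4 ± 2.77 CPM in CTL and 13.8 ± 3.53 CPM in LIP. The 4 NK-cell markers summed to 6.36 to 14.0 and 3.94 to 8.80 CPM. On day 0 the sums were 13.8 to 29.1 CPM in CTL and 25.2 to 37.9 CPM in LIP for the NK-cell markers, 6.62 to 19.1 and 11.8 to 18.0 CPM for the myeloid markers, and 36.7 to 39.5 and 39.4 to 42.6 CPM for the plasmacytoid markers. Most of the plasmacytoid sum of day 0 was Ccr9, at 33.6 ± 2.60 CPM in CTL and 35.5 ± 2.08 CPM in LIP. Siglech was at 0.212 ± 0.199 and 0.137 ± 0.00356 CPM. A different gene thus carried the plasmacytoid sum on each day. With culture, at an adjusted p under 0.05 in edgeR, 4 of 4 myeloid markers tested fell in both CTL and LIP cells. Of the 4 NK-cell markers 3 fell in CTL cells and 4 in LIP cells. Of the 6 B-cell markers 0 rose and 1 fell in CTL cells, and 3 rose and 1 fell in LIP cells. Of 2 plasmacytoid markers tested, 1 rose and 1 fell in both. Over all genes 35.3% rose and 33.7% fell in CTL cells, and 36.6% and 35.2% in LIP cells. The part of these markers in the values of the 6 genes, between groups or between days, was not tested.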

How the data were processed

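Total RNA of 12 libraries was sequenced by the authors as 150-bp paired-end reads on the DNBSEQ-G400 platform, after rRNA depletion and directional library preparation. Per the study's methods and the labels, FastQC 0.11.9, Trimmomatic (version 0.38 in the submitters' notes, another in the methods), HISAT2, Bowtie2 and RSEM 1.3.0 were used with GRCm39. The annotation release and strand setting are not given in the sources used here.

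The deposited table holds RSEM expected counts of 55414 gene records, which were rounded to whole numbers (73267 values were not whole). The deposited tables of each day also hold the authors' normalized values, fold changes and p-values, and were used for gene symbols only. In them, 2 columns name libraries that match no label and were not used.

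Genes were filtered with filterByExpr, normalized by TMM and tested with edgeR 4.0.16 (quasi-likelihood, Benjamini-Hochberg adjustment, two-sided) in R 4.3.3, within each day (6 libraries) or over 12 libraries for the other contrasts. The fits were tested on simulated data. Alternatives were RLE normalization, DESeq2 1.42.0, no filter beyond 1 count, another set of libraries in the fit, each library left out, and the study's rule. Gene positions and exon lengths came from GENCODE M39. The concentrations of the culture agents differ between the labels and the methods and are not given.

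The 6 genes and all lists were chosen with earlier results of these data known. From each list and comparison, the text draws on the 3 largest changes in each direction among genes with an adjusted p under 0.05, or, where none passed, on the 2 with the smallest p. The 5 nearest profiles used a root mean square difference over 12 libraries among genes of at least 10 CPM. Replicate libraries differed beyond sampling noise, so none was counted as a duplicate.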

Additional observations from a re-analysis of the deposited data

Results flagged for a closer look

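The difference between LIP and CTL cells in Parp12 differed between the days by 2.42 on the log2 scale (SE 0.30), by the interaction term of an edgeR fit over 12 libraries. It had an adjusted p under 0.05 in that fit and was the 1 value of the 6 genes that met a rule for a closer look. Parp12 was chosen with this contrast known, so the value is a description. The gap test for a single outlying library needs at least 4 libraries a group and was not run on groups of 3.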

How the results depend on the processing

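No paired analysis was possible because the 2 groups of each LIP or day contrast shared fewer than 2 replicate numbers. LIP day 0 and CTL day 2, which were not set against each other, share 92 and 93, and a block over all 12 libraries was not run. The number of the 6 genes called higher on day 2 was 0, but it was 6 with DESeq2 (beside 2.04% of all genes), 6 without the filter on low counts (1.59%), 6 with all 12 libraries in 1 fit (2.88%) and 2 under the study's rule (1.62%). It ranged from 0 to 6 when libraries were left out in turn, and 6 was reached only without LIP 90 (7.74%). For the day 2 difference minus the day 0 difference the count was 1, but it was 5 with DESeq2 (2.40%) and 6 without the filter (1.82%). It ranged from 0 to 5 over the omissions, with 5 without LIP 90 (5.64%) and 0 without CTL 88, CTL 89, LIP 92 or LIP 93 of day 0 or CTL 93 of day 2. In LIP cells, the count lower on day 2 than on day 0 ranged from 0 to 1, the 1 being Parp11 without LIP 97 (32.2%). The other counts of the 6 genes called were within 1.5 times the first in every alternative.

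The 330 alternative log2 fold changes of the 6 genes all lay within 1 pooled SD between replicates of their first value. Leaving out 1 of 3 libraries moves a group mean by only part of that group's SD. The bound is therefore loose, and little is read from it. The sign differed in 5 of 60 on day 0, 1 of 60 for day 2 against day 0 in LIP cells and 0 in the other comparisons. With 3 libraries a group, and as few as 14 counts for Parp12, precision is limited. The cause of the differences between fits was not tested.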
